A study of Mus musculus with 24 samples.

Results

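The genes described here are 9 small leucine-rich proteoglycans (SLRPs), chosen by name: decorin (Dcn), biglycan (Bgn), asporin (Aspn), lumican (Lum), fibromodulin (Fmod), osteomodulin (Omd), Prelp, osteoglycin (Ogn) and podocan (Podn). They are 9 of the 25385 gene symbols measured. The study sequenced RNA of mouse marrow-derived mesenchymal stem cells, expanded cells that can form bone-like or fat-like cultures, in 8 groups of 3 libraries. Undifferentiated cells (day 0) were in growth medium. Osteogenic cells had 7 or 15 days with β-glycerophosphate and ascorbic acid, and adipogenic cells had 7 days with insulin, indomethacin and dexamethasone. In each of these 4 states, cells received either ethanol vehicle or 100 nM 1,25(OH)2D3, the hormonally active form of vitamin D (VD3 below), for the last 24 h. All groups came from cryopreserved cells expanded in culture. The labels do not say that the 3 libraries of a group came from separate cultures, so p-values measure the spread between these libraries, which may be technical. Since these are bulk samples, fewer cells of a type and less RNA per cell cannot be told apart.

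SLRPs are secreted proteins with a horseshoe-shaped domain of leucine-rich repeats, and most of them carry chondroitin, dermatan or keratan sulfate chains. They bind fibrillar collagens and set how collagen fibrils grow in width, and several bind growth factors of the TGF-β family in the matrix. Decorin, biglycan and asporin form class I, lumican, fibromodulin, osteomodulin and Prelp form class II, osteoglycin belongs to class III, and podocan is a later-recognised member. In bone, biglycan and decorin are abundant in the organic matrix, and osteomodulin, also called osteoadherin, is a keratan sulfate proteoglycan of mineralised matrix that binds osteoblast integrins. Several of these genes sit in clusters: Aspn, Omd and Ogn lie next to each other on mouse chromosome 13 after their relative Ecm2, Dcn lies beside Lum, Kera and Epyc on chromosome 10, and Prelp and Fmod lie beside Optc on chromosome 1 (order from RefSeq, assembly GRCm38.p6).

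Values are RPKM (read counts scaled by transcript length and library size), which are per length, so levels can be set side by side between genes. Differences are on the log2(RPKM + 1) scale and are called where the adjusted p of the limma fit over all 24 libraries is below 0.05. Library depth, estimated from the steps between low values, ran from about 7120000 to 46500000 reads. The median RPKM of 1485 olfactory, vomeronasal and taste receptor genes, used as a measure of background, was 3.39 to 4.93 in 5 of the 6 day 0 libraries, 0.456 in VD3 replicate 2 of day 0 and 0.208 to 1.30 in the 18 differentiated libraries. Those 5 day 0 libraries were also the shallowest, at about 7120000 to 11000000 reads, and the others had at least 11500000. Bgn, Omd, Ogn and Dcn exceeded this background in all 24 libraries and Aspn in 23, whereas Lum, Prelp, Fmod and Podn exceeded it in 0 of 6 day 0 libraries. At a median of -0.46 on the log2 scale, the typical gene was lower at osteogenic day 7 than at day 0, and the same median was -0.55 for osteogenic day 15, -0.83 for adipogenic day 7 and -0.27 for VD3 at day 0. Differences from day 0 are read against these shifts, and how much of them background accounts for was not tested.

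The 9 genes together came to 740 ± 11.8 RPKM (SD, n = 3) in day 0 vehicle cells, of which osteoglycin alone made up 69.6%. The sum was 601 ± 74.5 in osteogenic day 7, 388 ± 12.8 in osteogenic day 15 and 253 ± 17.1 in adipogenic day 7 vehicle cells. Its make-up differed between the states. Biglycan was the next largest at day 0 with 17.0% of the sum, decorin was the largest at osteogenic day 15 with 30.5%, and osteomodulin was the next largest in adipogenic cells with 33.0%. With VD3 the sum was 383 ± 21.2 at day 0, 530 ± 87.6 at osteogenic day 7, 339 ± 25.4 at osteogenic day 15 and 122 ± 8.29 in adipogenic cells. The sums of vehicle and VD3 libraries did not overlap at day 0, at osteogenic day 15 or in adipogenic cells, and they overlapped at osteogenic day 7. A sum is dominated by osteoglycin and carries no test of its own. The total RPKM of a library also varied, from 531612 to 772160 over the 24 libraries. It was 703347 to 749684 in day 0 vehicle and 546925 to 565193 in adipogenic vehicle libraries. Its part in the differences between sums was not tested.

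**Figure D1:**
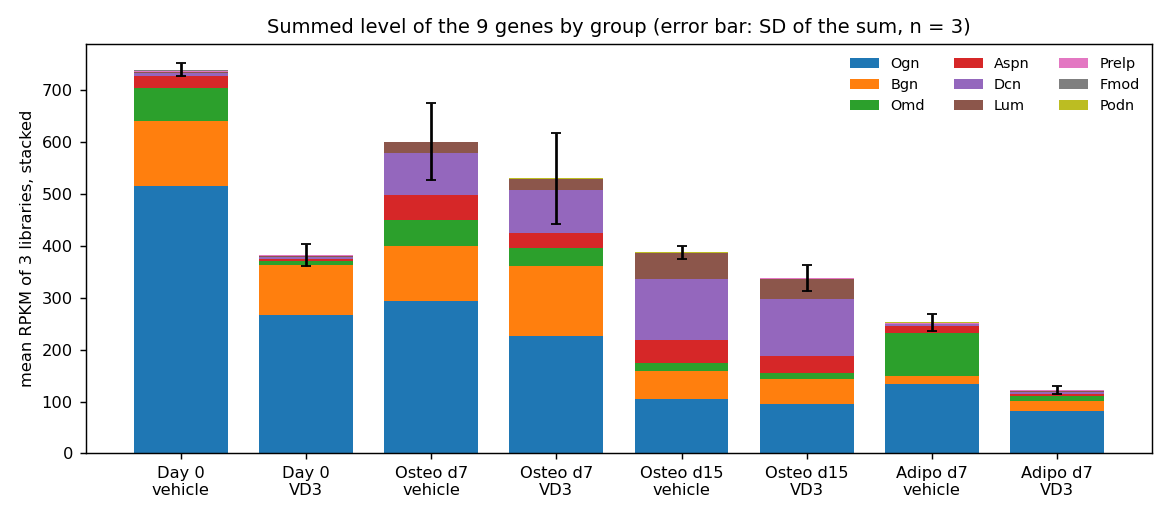
Stacked mean RPKM of the 9 genes in the 8 groups, with bars for the genes, error bars for the SD of the sum and 3 libraries a group. Osteoglycin makes up 69.6% of the day 0 vehicle bar, decorin 30.5% of the osteogenic day 15 vehicle bar and osteomodulin 33.0% of the adipogenic vehicle bar.

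**Figure D2:**
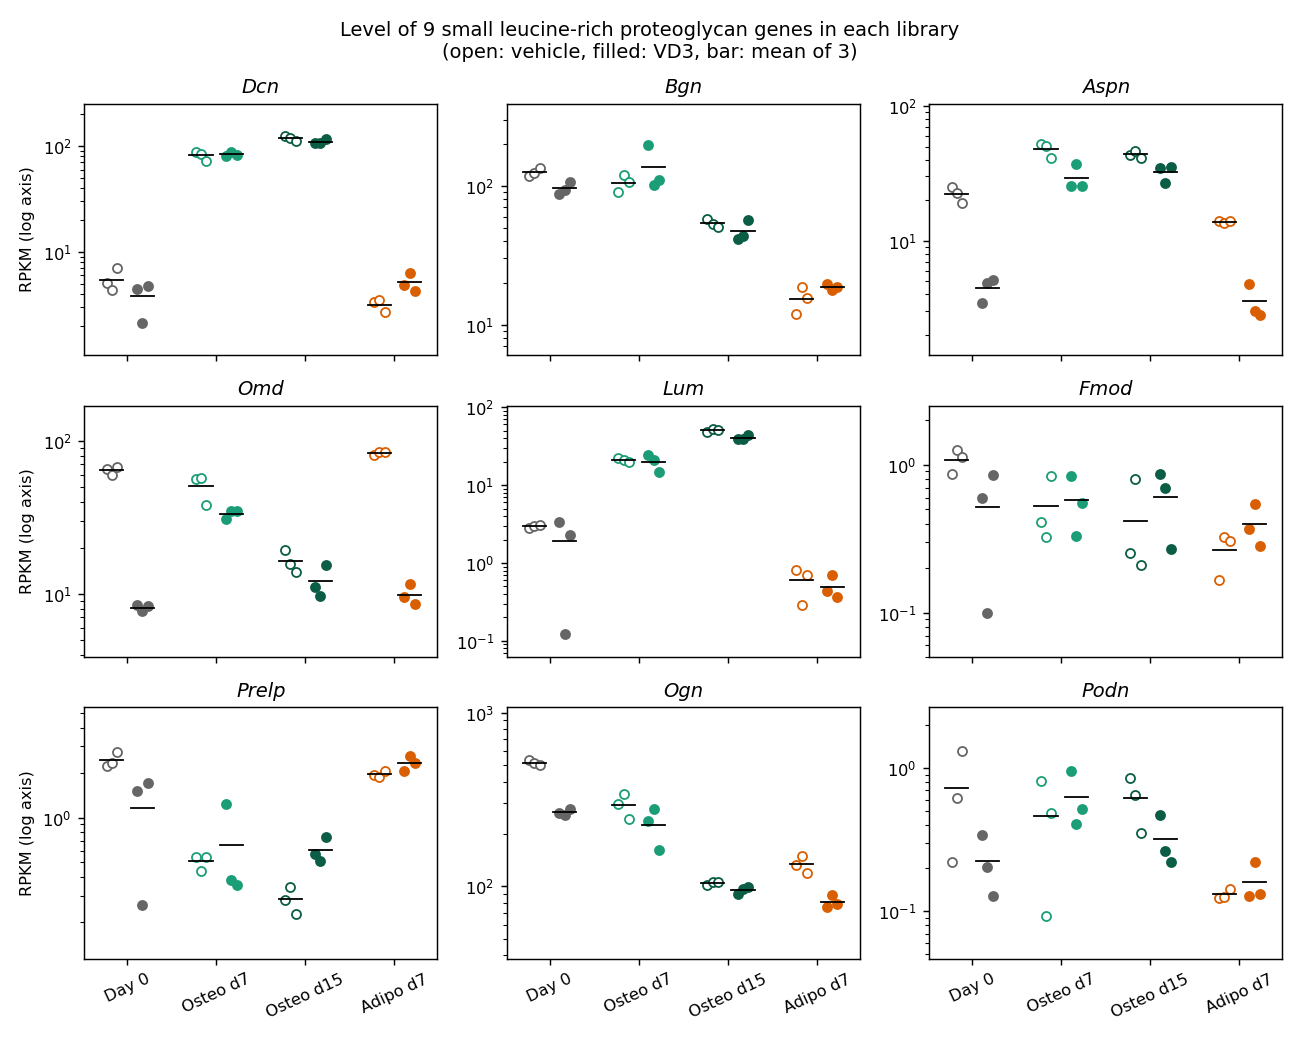
RPKM on a log axis of each gene in each of the 24 libraries, by state, with open circles for vehicle, filled circles for VD3 and bars for means of 3. Dcn and Lum are highest in osteogenic libraries, Bgn is lowest in adipogenic ones, and filled circles lie below open ones for Omd and Aspn in all states except 1 overlapping pair of libraries for Omd at osteogenic day 15.

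Decorin, a class I member that binds collagen fibrils and TGF-β, was far higher in osteogenic than in other cells. In vehicle libraries it was 5.06, 4.34 and 7.01 RPKM at day 0, 88.4, 84.3 and 72.3 at osteogenic day 7, 126, 119 and 111 at osteogenic day 15, and 3.34, 3.49 and 2.69 in adipogenic cells. Osteogenic libraries were all far above the others, and the day 0 and adipogenic libraries did not overlap. Against day 0 the log2 difference was 3.69 ± 0.18 (SE) at osteogenic day 7, with a limma adjusted p of 1e-12, and 4.23 ± 0.18 at osteogenic day 15, with an adjusted p of 3.26e-14. With background subtracted, an alternative chosen after the data were seen, these differences were 5.22 and 5.76, the day 0 level being close to the day 0 background. The files hold 2 transcript rows for Dcn, and 1 of them carried most of the osteogenic signal: it averaged 80.9 RPKM at osteogenic day 7 and 105 at day 15, while the other averaged 0.784 and 13.03. The lower row reached 25.4 RPKM in osteogenic day 15 vehicle replicate 1.

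Between the 2 osteogenic times the rise of Dcn was 0.53 ± 0.18 with an adjusted p of 0.0483. That call was lost in 14 of 17 alternatives, with adjusted p between 0.00827 and 0.258 over all of them, among them leaving out any 1 of the 6 libraries. In adipogenic against day 0 cells Dcn fell by 0.62 with an adjusted p of 0.00357, less than the median gene of that comparison, and the direction turned to 0.27 when only the larger transcript row was kept and to 0.64 with background subtracted. Adipogenic against osteogenic day 7 cells, a comparison that uses no day 0 library, gave -4.31 ± 0.18 with an adjusted p of 2.56e-15.

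Lumican, a keratan sulfate proteoglycan best known from the cornea and also present in bone and tendon, lies next to Dcn and had its highest level in the same groups. Its vehicle values were 2.84, 2.97 and 3.04 RPKM at day 0, 22.3, 20.8 and 19.5 at osteogenic day 7, 47.5, 52.4 and 50.5 at osteogenic day 15, and 0.821, 0.290 and 0.699 in adipogenic cells. The 4 groups did not overlap. The rise from osteogenic day 7 to day 15 was 1.23 ± 0.30 with an adjusted p of 0.00783, and it passed in 16 of 17 alternatives, the exception being a pseudocount of 0.1 (adjusted p 0.242). Against day 0 the differences were 2.46 ± 0.30 and 3.69 ± 0.30 for the earlier and later osteogenic time. Lum lay below the background of its own library in all 3 day 0 vehicle libraries, and VD3 replicate 2 of day 0, the library with low background, had 0.124 RPKM against 3.37 and 2.26 in the other day 0 VD3 libraries. The difference of -1.32 from day 0 to adipogenic cells (adjusted p 0.000689) was 0 once background was subtracted. That 0 was fixed beforehand, as all vehicle libraries of both states lay below their background and such values are set to 0. The difference turned to 0.41 between VD3-treated cells with VD3 replicate 2 as the lone day 0 library. The 2 other genes of that cluster, Kera and Epyc, averaged at most 3.20 and 2.37 RPKM in any group, and both were highest in day 0 vehicle cells, where background was high.

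Biglycan carries a pair of chondroitin or dermatan sulfate chains and is needed for normal bone mass in mice. With vehicle it was not called higher in osteogenic than in day 0 cells. Its vehicle levels were 117, 125.1 and 135 RPKM at day 0, 90.7, 119 and 107 at osteogenic day 7, 57.5, 52.9 and 50.8 at osteogenic day 15, and 12.0, 18.5 and 15.6 in adipogenic cells. Day 0 and osteogenic day 7 libraries overlapped, and the later osteogenic and the adipogenic libraries lay below them without overlap. The difference from day 0 was -0.25 ± 0.18 at osteogenic day 7 (adjusted p 0.238), -1.21 ± 0.18 at osteogenic day 15 (adjusted p 1.59e-05) and -2.97 ± 0.18 in adipogenic cells (adjusted p 7.03e-12). From the earlier to the later osteogenic time it fell by 0.96 with an adjusted p of 0.000848. The calls against day 0 at osteogenic day 15 and in adipogenic cells were kept in all 18 alternatives run for each. Adipogenic against osteogenic day 7 cells gave -2.72 ± 0.18 with a limma adjusted p of 2.75e-11, so Bgn was higher in osteogenic than in adipogenic cells.

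Osteomodulin, the keratan sulfate proteoglycan of mineralised matrix, was highest in adipogenic cells and lowest late in osteogenic culture. In vehicle cells it was 65.3, 59.7 and 67.7 RPKM at day 0, 56.2, 56.7 and 38.0 at osteogenic day 7, 19.3, 15.6 and 13.9 at osteogenic day 15, and 80.2, 84.3 and 85.0 in adipogenic cells. The adipogenic libraries were the highest and the late osteogenic ones the lowest, with no overlap between the 4 groups. Between the osteogenic times it fell by 1.56 with an adjusted p of 1.53e-07, and from day 0 to the later time it fell by 1.93 with an adjusted p of 1.4e-09. The smaller differences from day 0 were less stable. At osteogenic day 7 it was -0.37 ± 0.15 (adjusted p 0.0375), which missed the threshold without vehicle replicate 1 or 3 of day 0 or replicate 3 of osteogenic day 7, where it was -0.36, -0.33 and -0.18, as well as with plain empirical Bayes, the fit of the compared groups only and background subtracted. It turned to 0.054 with median-ratio rescaling. In adipogenic cells it was 0.37 ± 0.15 (adjusted p 0.031), a call lost in 7 of 18 alternatives. Among these were the fits without vehicle replicate 1 or 2 of day 0 or replicate 2 or 3 of adipogenic cells, at 0.38, 0.32, 0.36 and 0.35. Over all alternatives it ran from 0.25 to 0.99, the highest with median-ratio rescaling.

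Asporin, a class I member with a run of aspartates in place of the usual chain attachment site, which binds collagen and restrains TGF-β and BMP signalling, was higher in osteogenic cells. Its vehicle values were 24.9, 22.8 and 19.0 RPKM at day 0, 52.0, 50.9 and 41.1 at osteogenic day 7, 43.5, 46.6 and 40.9 at osteogenic day 15, and 14.1, 13.5 and 14.0 in adipogenic cells. The osteogenic groups overlapped each other and lay above day 0, and the adipogenic libraries were lowest. The rise over day 0 was 1.08 ± 0.17 (adjusted p 2.81e-05) and 0.95 ± 0.17 (adjusted p 5.35e-05), and it was called in all 18 alternatives for each time. The adipogenic difference from day 0 was -0.64 ± 0.17 (adjusted p 0.00167), smaller than the median gene of that comparison. It missed the threshold in 5 of 18 alternatives, with a value of -0.04 under median-ratio rescaling. Of 2 transcript rows for Aspn, 1 is listed at 0 in all 24 libraries.

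Osteoglycin, also called mimecan, was the most abundant of the 9 genes in 6 of the 8 groups, decorin being higher in both groups of osteogenic day 15. Vehicle levels were 535, 513 and 498 RPKM at day 0, 297, 339 and 243 at osteogenic day 7, 101, 107 and 105 at osteogenic day 15, and 133, 150 and 119 in adipogenic cells. Day 0 libraries were the highest and late osteogenic ones the lowest, and none of the 4 groups overlapped. The difference from day 0 was -0.82 (adjusted p 6.52e-05) at osteogenic day 7, -2.29 (adjusted p 2.11e-11) at osteogenic day 15 and -1.94 (adjusted p 7.49e-11) in adipogenic cells. In VD3-treated libraries, where Ogn starts lower at day 0, the osteogenic day 7 difference was -0.28 and missed the threshold (adjusted p 0.116).

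Prelp, a class II member with an arginine-rich end that binds heparan sulfate, did not exceed 2.73 RPKM in any library. Its vehicle values were 2.23, 2.31 and 2.73 at day 0, 0.548, 0.437 and 0.543 at osteogenic day 7, 0.279, 0.343 and 0.226 at osteogenic day 15, and 1.91, 1.87 and 2.05 in adipogenic cells. Adipogenic libraries were above all osteogenic vehicle ones, by 0.97 ± 0.24 over day 7 (adjusted p 0.00235), and this was called in all 16 alternatives. The differences of Prelp from day 0 were not of a stable direction: the value of -1.18 at osteogenic day 7 turned to 0.23 and that of -1.41 at osteogenic day 15 to 0.0067 with background subtracted. That subtraction set the day 0 values of Prelp, all below background, to 0, so it could not give a fall. Quantile scaling gave 0.047 and -0.23. Fibromodulin, which sets the width of tendon fibrils and guides collagen cross-linking, ran from 0.100 to 1.26 RPKM, and podocan from 0.0930 to 1.33. Neither reached 1 RPKM in 3 libraries and so neither was tested, which leaves 7 of the 9 genes with a test. Tested members were kept by their level in the groups where they are high.

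Counts of called genes stood as follows. From day 0 to osteogenic day 7, 3 of the 7 tested members rose (Dcn, Aspn, Lum) and 3 fell (Omd, Ogn, Prelp), while 13.6% of all tested genes were called higher, 50.4% lower and 64.0% in either direction in that comparison. From day 0 to osteogenic day 15, 3 rose and 4 fell, against 17.5% of all genes higher, 53.4% lower and 70.9% in either direction. From day 0 to adipogenic cells, Omd rose and 5 members fell (Dcn, Bgn, Aspn, Ogn, Lum), against 13.2% of all genes higher, 65.5% lower and 78.6% in either direction. The median over the 7 members in these comparisons was -0.25, -1.21 and -0.64, beside -0.46, -0.55 and -0.83 over all genes tested. With such backgrounds these shares are no result about the members. Between the osteogenic times 5 members were called, against 6.87% of all genes higher, 6.47% lower and 13.3% in either direction: Dcn and Lum rose, and Bgn, Omd and Ogn fell. Between adipogenic and osteogenic day 7 cells all 7 were called, against 12.4% of all genes higher, 25.4% lower and 37.8% in either direction, with Omd and Prelp higher in adipogenic cells and the other 5 lower. The comparisons with day 0 share the 3 day 0 vehicle libraries, and the last 2 share the osteogenic day 7 vehicle libraries.

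**Figure D3:**
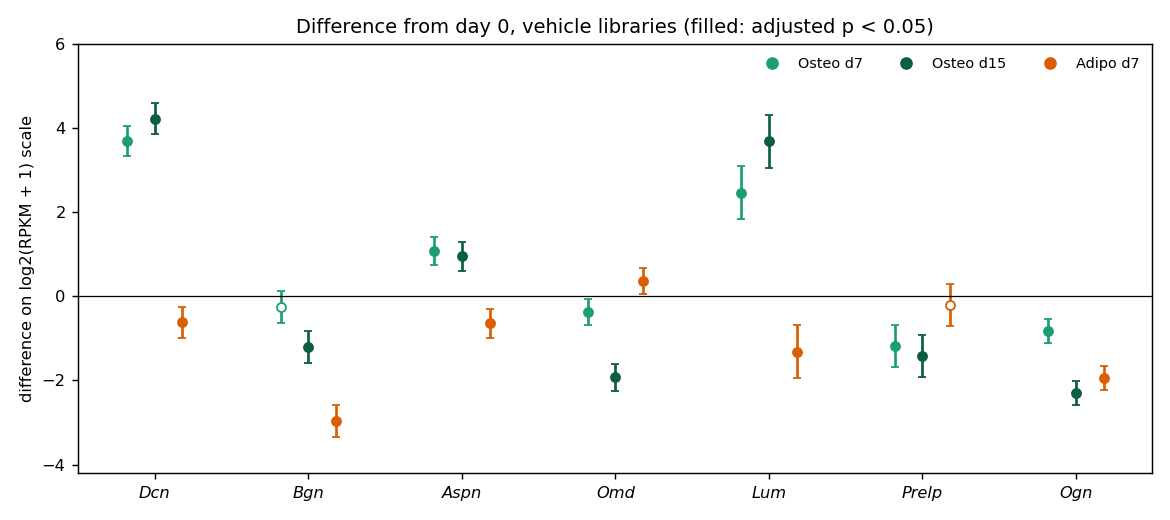
Difference from day 0 on the log2(RPKM + 1) scale for the 7 tested genes in vehicle libraries, with 95% confidence intervals of the limma fit and filled points for adjusted p below 0.05. Dcn and Lum are 2.46 to 4.23 above day 0 in osteogenic cells, while Bgn and Ogn are lowest relative to day 0 in late osteogenic or adipogenic cells.

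The members that fell most with VD3 were 3 neighbours. Osteomodulin, asporin and osteoglycin, adjacent on chromosome 13, fell with 24 h of VD3 in undifferentiated and in adipogenic cells, and the first 2 of them also fell, by less, at osteogenic day 7. At day 0, 4 of the 7 tested members were called lower (Omd, Aspn, Ogn, Prelp) and 0 higher, while 3.98% of all genes were called higher, 11.0% lower and 15.0% in either direction. In adipogenic cells 3 were called lower (Omd, Aspn, Ogn) and 0 higher, while 1.51% of all genes were called higher, 0.574% lower and 2.08% in either direction. At osteogenic day 7, 2 were called lower (Omd, Aspn) and 0 higher, against 2.91% of all genes higher, 2.35% lower and 5.26% in either direction. At osteogenic day 15 limma called 0 members, against 0.526% of all genes higher, 0.246% lower and 0.773% in either direction, and 2 members, Omd and Aspn, had an unadjusted p below 0.05. The median over the 7 members at day 0 was -0.74, beside -0.27 over all genes tested.

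**Figure D4:**
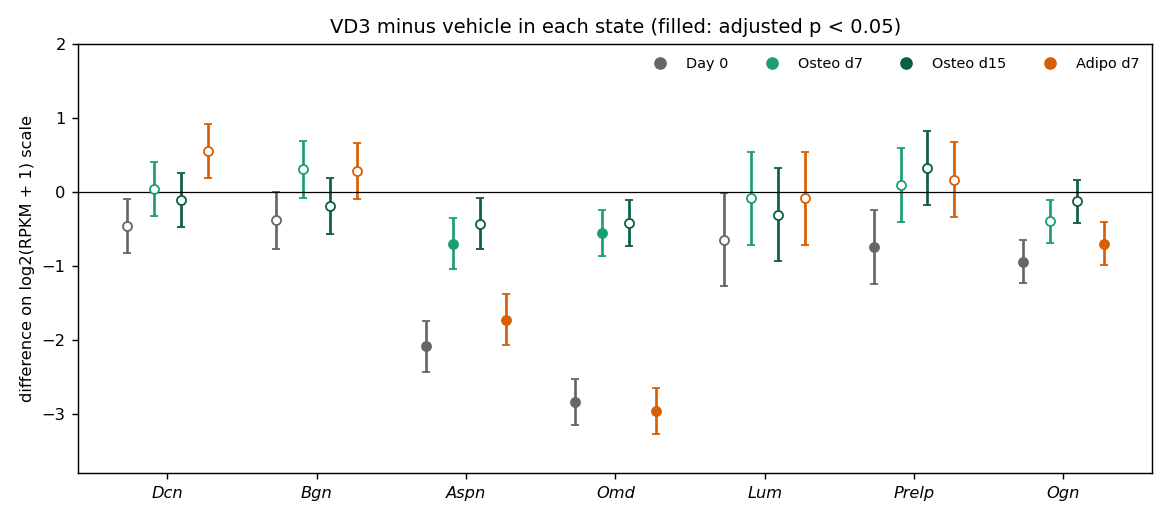
VD3 minus vehicle on the log2(RPKM + 1) scale for the 7 tested genes in the 4 states, with 95% confidence intervals and filled points for adjusted p below 0.05. Omd lies at -2.84 at day 0 and -2.96 in adipogenic cells but at -0.55 and -0.42 in osteogenic cells, and Bgn, Dcn and Lum have no filled point.

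Osteomodulin had the largest log2 difference of the 7 tested members at day 0 and in adipogenic cells. At day 0 it went from 65.3, 59.7 and 67.7 RPKM with vehicle to 8.40, 7.70 and 8.26 with VD3, and in adipogenic cells from 80.2, 84.3 and 85.0 to 9.52, 11.5 and 8.60. In both states every VD3 library was far below every vehicle library. The log2 differences were -2.84 ± 0.15 (adjusted p 1.07e-11) and -2.96 ± 0.15 (adjusted p 1.71e-11), called in all 16 alternatives each, between -3.30 and -2.58 at day 0 and between -3.08 and -2.82 in adipogenic cells. At osteogenic day 7 the values were 56.2, 56.7 and 38.0 with vehicle and 30.7, 34.8 and 34.8 with VD3, and the lowest vehicle library stood just above the highest VD3 library. The difference there was -0.55 ± 0.15 (adjusted p 0.0312). At osteogenic day 15 the values were 19.3, 15.6 and 13.9 with vehicle and 11.1, 9.65 and 15.4 with VD3, which overlapped, and the difference was -0.42 with an adjusted p of 0.458.

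Asporin went from 24.9, 22.8 and 19.0 RPKM to 3.43, 4.90 and 5.15 at day 0 and from 14.1, 13.5 and 14.0 to 4.80, 3.04 and 2.84 in adipogenic cells. Again no VD3 library reached the vehicle libraries. The differences were -2.09 ± 0.17 (adjusted p 6.4e-09) and -1.73 ± 0.17 (adjusted p 3.12e-07), called in all 16 alternatives each. Of the day 0 VD3 values, that of replicate 1 lay below the background of its library, and the difference was -2.93 with background subtracted. How much background bears on its size was not tested. At osteogenic day 7, where the values were 52.0, 50.9 and 41.1 with vehicle and 25.4, 37.3 and 25.6 with VD3, the groups were apart and the difference was -0.70 ± 0.17 (adjusted p 0.0109). At osteogenic day 15 they were also apart, 43.5, 46.6 and 40.9 against 34.6, 27.0 and 35.2, but the difference of -0.43 missed the threshold with an adjusted p of 0.551.

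The calls at osteogenic day 7 were less firm than those at day 0 and in adipogenic cells. Both were lost in a fit of only the 6 libraries compared (adjusted p 0.103 for Omd and 0.0525 for Aspn), with background subtracted (0.0824 and 0.418), and without vehicle replicate 1 (0.162 and 0.0615), vehicle replicate 2 (0.184 and 0.0599), VD3 replicate 1 (0.138 and 0.0731) or VD3 replicate 3 (0.0596 and 0.0642). The Omd call alone was also lost without VD3 replicate 2 (0.0532) or with plain empirical Bayes (0.0635), and the Aspn call alone with quantile scaling (0.0909). The direction was lower in every one of these fits, from -0.46 to -0.58 for Omd and from -0.61 to -0.72 for Aspn.

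Osteoglycin had a smaller log2 difference than its neighbours, from a higher level. At day 0 it went from 535, 513 and 498 RPKM to 266, 258 and 277, and in adipogenic cells from 133, 150 and 119 to 76.3, 89.4 and 79.5, with no overlap in either state. The differences were -0.95 ± 0.14 (adjusted p 5.42e-05) and -0.70 ± 0.14 (adjusted p 0.0045), called in all 16 alternatives each. In RPKM this fall of osteoglycin at day 0 was larger than those of Omd and Aspn together, and it is most of the drop in the summed level. At osteogenic day 7 the libraries with 297, 339 and 243 RPKM of vehicle and 238, 279 and 161 of VD3 overlapped, and the difference of -0.40 was not called (adjusted p 0.122). Without vehicle replicate 3 it was -0.53 (adjusted p 0.042), without VD3 replicate 2 it was -0.57 (adjusted p 0.0146) and without VD3 replicate 3 it was -0.17. At osteogenic day 15 Ogn was 101, 107 and 105 against 90.0, 96.8 and 99.2, a difference of -0.13 with an adjusted p of 1.

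The difference between states was tested as an interaction in the same fit. The VD3 effect on Omd was 2.28 ± 0.21 less negative at osteogenic day 7 than at day 0 (adjusted p 1.62e-06) and the effect in adipogenic minus osteogenic day 7 cells was -2.41 ± 0.21 (adjusted p 4.2e-07). Both were called in all 22 alternatives each. For Aspn the same differences were 1.38 ± 0.23 (adjusted p 0.00169) and -1.03 ± 0.23 (adjusted p 0.0197). The former missed the threshold only with median-ratio rescaling (adjusted p 0.0583), and the latter missed it in 8 of 22 alternatives, among them without VD3 replicate 2 (-0.85) or vehicle replicate 3 (-0.92) of osteogenic day 7 or VD3 replicate 2 (-0.95) or 3 (-0.91) of adipogenic cells. For Ogn they were 0.55 ± 0.20 (adjusted p 0.126) and -0.31 ± 0.20 (adjusted p 0.75). Without osteogenic day 7 VD3 replicate 3 the former was 0.77 (adjusted p 0.00964). Of all genes, 2.55% and 1.82% were called in these comparisons. Day 0 and adipogenic cells did not differ in the VD3 effect past the threshold for any of the 3: the interval of the difference ran from -0.57 to 0.32 for Omd, from -0.13 to 0.84 for Aspn and from -0.17 to 0.65 for Ogn. In that comparison 1 member was called, Dcn at 1.02 ± 0.25 (adjusted p 0.024), against 3.47% of all genes, and this call was lost in 9 of 22 alternatives. Without day 0 VD3 replicate 2 it was 0.73, without vehicle replicate 3 of day 0 0.85, without VD3 replicate 2 of adipogenic cells 0.89, without vehicle replicate 3 of adipogenic cells 0.93, and with the larger transcript row alone -0.16. Between the 2 osteogenic times limma called 0 members, against 0.185% of all genes, and 0 had an unadjusted p below 0.05.

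Because VD3 lowered Omd so unequally, the order of the states for this gene differed between vehicle and VD3 libraries. With vehicle the order was adipogenic, day 0, osteogenic day 7 and osteogenic day 15, and with VD3 it was osteogenic day 7, osteogenic day 15, adipogenic and day 0. In VD3-treated libraries Omd was 1.92 higher at osteogenic day 7 than at day 0 (adjusted p 2.81e-09) and differed by -1.67 between adipogenic and osteogenic day 7 cells (adjusted p 3.34e-09), the opposite of the vehicle direction in each case. In VD3-treated cells the late osteogenic level was 0.49 above day 0 (adjusted p 0.0122), again opposite to vehicle, although with VD3 replicate 2 as the lone day 0 library this 0.56 missed the threshold (adjusted p 0.1004). Among the 8 group means of Omd, neighbours in the order overlapped only between osteogenic day 15 with vehicle and with VD3, and between the latter and adipogenic VD3.

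VD3 differences of Bgn, Dcn and Lum were not called in any state, and that of Prelp was called at day 0 alone. Bgn differed by -0.39 at day 0, 0.30 at osteogenic day 7, -0.19 at osteogenic day 15 and 0.28 in adipogenic cells, with adjusted p of 0.143, 0.521, 1 and 0.934. Their 95% intervals reached from -0.77 to 0.69 over the 4 states, which leaves room for changes of that size, and the day 0 libraries did not overlap. The osteogenic day 7 mean of Bgn rested on VD3 replicate 1, at 196 RPKM against 101 and 111, and the difference was 0.01 without it. Dcn differed by 0.04 and -0.11 at the osteogenic times, where it is abundant, with intervals from -0.33 to 0.40 and from -0.47 to 0.26. At low levels it was -0.46 at day 0 (adjusted p 0.077; -0.59 and 0.0271 without VD3 replicate 1, -0.62 and 0.0281 without VD3 replicate 3) and 0.56 in adipogenic cells (adjusted p 0.157, libraries apart), and the larger transcript row alone gave 0.11 and -0.048. Lum differed by -0.09 and -0.31 at the osteogenic times (adjusted p 0.969 and 1), with 20.8 against 19.9 and 50.1 against 40.3 mean RPKM, vehicle first, and the osteogenic day 15 libraries did not overlap. At day 0, where Lum lay below background, it differed by -0.65 (adjusted p 0.136), and this was -1.05 (adjusted p 0.00971) without VD3 replicate 1 and -0.067 without VD3 replicate 2. Prelp differed by 0.32 at osteogenic day 15 (adjusted p 1), where its libraries were apart. The Prelp call at day 0 (-0.74, adjusted p 0.0427) went with the low background of VD3 replicate 2, at 0.258 RPKM against 1.51 and 1.70 in the others. Without that library it was -0.39 (adjusted p 0.255). With background subtracted it was 0, which was fixed beforehand: Prelp lay below background in all 6 day 0 libraries, and such values are set to 0.

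The other genes around Aspn, Omd and Ogn on chromosome 13 were not called with VD3. In order along the chromosome the genes are Bicd2, Ippk, Cenpp, Ecm2, Aspn, Omd, Ogn, Nol8, Iars and Fbxw17. Ecm2, the other leucine-rich matrix gene of the cluster, was low, with 3.16 mean RPKM in day 0 vehicle cells and 2.42 with VD3, and was not called in any state, with adjusted p from 0.233 to 1. The day 0 vehicle means of Ecm2 and Cenpp lay below the background of all 3 libraries, so a fall of either was not detectable there. The 6 flanking genes were all tested, and limma called 0 of them with VD3 in any of the 4 states, with 1 unadjusted p below 0.05, at osteogenic day 15. Of all genes, 15.0% were called at day 0, 5.26% and 0.773% at the osteogenic times and 2.08% in adipogenic cells. Beside such shares, 0 of 6 is no result about these flanking genes. Their differences lay between -0.32 and 0.17 at day 0 and between -0.19 and 0.08 in adipogenic cells. Nol8, the gene beyond Ogn, had 7.48 mean RPKM with vehicle and 7.76 with VD3 at day 0, and 11.2 and 11.9 in adipogenic cells. In GENCODE M21, Cenpp on the opposite strand shares an exon with Aspn and spans Omd and Ogn. The labels call the libraries directional, and whether strand was used in counting is not given in the sources used here. Cenpp had 2.76 mean RPKM with vehicle and 2.03 with VD3 at day 0, and 0.931 and 0.943 in adipogenic cells, with VD3 adjusted p of 0.367 and 1. The lowest Aspn levels, with VD3, were 4.49 mean RPKM at day 0 and 3.56 in adipogenic cells, and the part of Cenpp reads in them was not tested. In the chromosome 10 cluster, Atp2b1, a plasma membrane calcium pump gene further along, rose with VD3 in all 4 states, from 36.6 to 95.5 mean RPKM at day 0, while Dcn, Lum, Kera, Epyc and the other 4 tested flanking genes were not called with VD3 in any state.

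**Figure D5:**
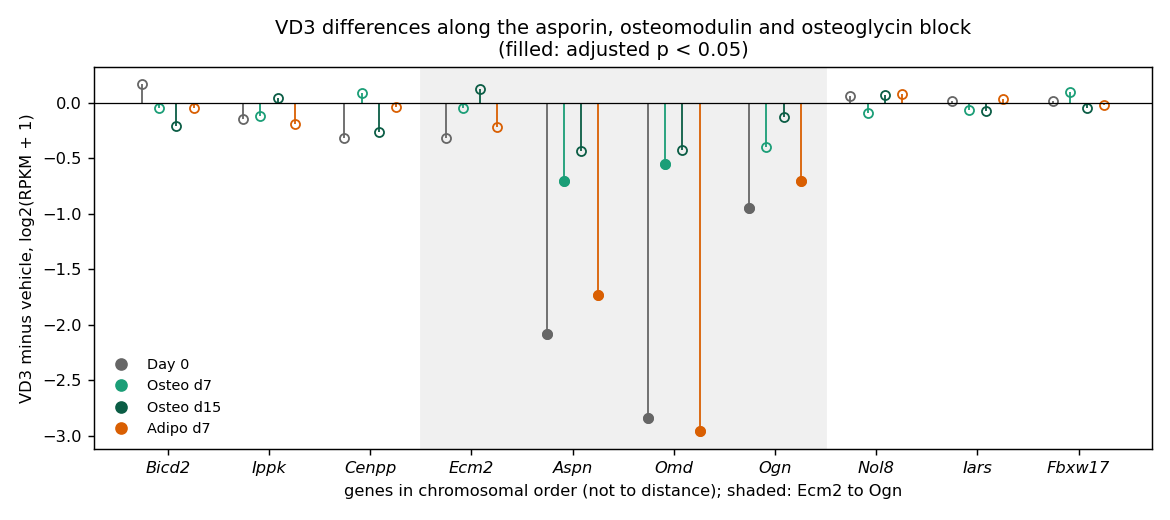
VD3 minus vehicle on the log2(RPKM + 1) scale for 10 genes in their order on chromosome 13, in 4 states, with filled points for adjusted p below 0.05. Filled points occur at Aspn, Omd and Ogn alone, and the 6 flanking genes stay between -0.32 and 0.17. Of all genes, 0.773% to 15.0% were called with VD3 in the 4 states.

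Sequences before the starts of these 3 genes are shown because they moved together with VD3. They are the 250 bases upstream of each start in the RefSeq promoter table, assembly GRCm38.p6, all 3 on the plus strand, written 5′ to 3′. The submitters aligned reads to mm9, so these positions belong to another build than the RPKM values. Capitals mark any match, on either strand, to AGGTCA or GGTTCA (the repeat units that the vitamin D receptor binds as pairs 3 bases apart), TGTGGT (a Runx core) or TATAAA. Aspn is chr13:49544193-49544442, Omd is chr13:49582212-49582461 and Ogn is chr13:49607765-49608014.
Aspn: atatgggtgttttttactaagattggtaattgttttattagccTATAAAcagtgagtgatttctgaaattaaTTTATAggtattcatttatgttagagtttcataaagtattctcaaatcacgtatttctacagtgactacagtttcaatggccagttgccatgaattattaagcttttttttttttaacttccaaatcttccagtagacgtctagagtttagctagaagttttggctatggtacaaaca
Omd: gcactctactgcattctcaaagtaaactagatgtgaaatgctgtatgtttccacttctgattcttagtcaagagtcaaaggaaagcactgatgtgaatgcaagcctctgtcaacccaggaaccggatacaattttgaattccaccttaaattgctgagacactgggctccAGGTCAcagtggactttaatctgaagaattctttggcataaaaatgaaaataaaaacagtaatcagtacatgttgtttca
Ogn: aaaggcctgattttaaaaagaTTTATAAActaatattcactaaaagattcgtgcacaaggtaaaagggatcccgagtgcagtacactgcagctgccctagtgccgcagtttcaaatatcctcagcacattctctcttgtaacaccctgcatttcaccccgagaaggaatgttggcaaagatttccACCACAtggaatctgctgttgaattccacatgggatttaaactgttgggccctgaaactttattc

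Omd holds 1 AGGTCA, 80 bases before the start, a motif found in 14.0% of the 32851 promoter windows. Neither Aspn nor Ogn holds AGGTCA, and none of the 3 holds GGTTCA, which 8.85% of windows hold. A pair of such units, 3 bases apart in the same direction, occurs in 0.0152% of windows and in no member window. Ogn holds TGTGGT on the minus strand 65 bases before its start, a motif of 14.0% of windows. TATAAA occurs in both orientations in Aspn, 207 and 178 bases before the start, and in Ogn, 229 and 227 bases before it in matches that overlap each other, against 12.4% of windows. These are matches of letters in short windows, and they describe neither binding sites nor the lack of them. In all, 7 of the 9 genes had an entry in the promoter table.

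The genes with the most similar patterns over the 8 group means are given as a description, among 6992 candidates with at least 5 mean RPKM. The measure is Pearson's r of log2(RPKM + 1), and the 8 points share libraries, depth and background. For Omd, AU022252 (0.847) and Tmem110 (0.846) are given. The 3 nearest to Aspn were Fam126a (0.977), Nov (0.959), a matricellular CCN protein, and Has2 (0.959), a hyaluronan synthase. Nov fell from 150 to 30.1 mean RPKM with VD3 at day 0 and from 42.1 to 18.4 in adipogenic cells. Ogn was nearest to Ncoa7 (0.993), Tmem160 (0.989) and the complement protease gene C1s (0.986). Bgn was nearest to the glypican Gpc6 (0.995), Pcolce (0.994), which enhances procollagen processing, and Rab2b (0.993).

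Dcn was nearest to Spryd3 (0.995), Cops8 (0.994) and Ensa (0.994), whose levels spanned narrower ranges, such as 54.0 to 90.1 mean RPKM for Ensa. Lum was nearest to Hspb8, Ttc37 and Trpc6, at 0.996 each. Among the members themselves, r was 0.974 between the neighbours Dcn and Lum, 0.768 between Bgn and Ogn, and lower between the VD3-responsive neighbours, at 0.443 for Omd with Aspn, 0.494 for Omd with Ogn and 0.157 for Aspn with Ogn. The 3 genes that fell together with VD3 thus differed in their levels across the cell states. For the low genes those given are D2hgdh (0.961), Rnf145 and Lcor for Prelp, Nt5c3 (0.953), Zfp101 and Fam117b for Fmod, and Arl2 (0.951) and Fas (0.947) for Podn.

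Genes that build, cut or bind SLRPs were taken from lists. From day 0 to osteogenic day 7, 13.6% of all genes were called higher and 50.4% lower. From day 0 to adipogenic day 7 it was 13.2% and 65.5%. The list counts in this and the next paragraph are read against these shares. Of 17 fibrillar collagens and cross-linking enzymes, 12 rose and 1 fell from day 0 to osteogenic day 7, and 1 rose and 13 fell to adipogenic day 7. Col1a1 was 42.1 ± 2.94 RPKM at day 0 and 186 ± 20.0 at osteogenic day 7, and Col3a1 was 205 ± 7.64 and 813 ± 95.6. Of 22 enzymes of the linkage region and of chondroitin or dermatan sulfate, 10 rose and 6 fell to osteogenic day 7 and 2 rose and 19 fell to adipogenic day 7. Csgalnact1, which starts chondroitin chains, was 46.2 ± 1.36 RPKM at day 0, 81.6 ± 2.35 at osteogenic day 7 and 6.12 ± 0.968 in adipogenic cells. Of the 3 tested among 5 keratan sulfate enzymes, 1 rose (Chst2, from 16.6 to 22.1 mean RPKM) and 1 fell to osteogenic day 7, and all 3 fell to adipogenic day 7.

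Of 8 proteases that can cut SLRPs, 5 rose and 2 fell to osteogenic day 7, and 1 rose and 7 fell to adipogenic day 7, among them Mmp14 from 124 ± 5.50 to 13.8 ± 0.780 RPKM. Of the 9 tested among 11 ligands and receptors, 4 rose and 2 fell to osteogenic day 7 and 1 rose and 7 fell to adipogenic day 7, with the growth factor gene Tgfb3 at 44.3 ± 1.20 RPKM at day 0, 84.9 ± 5.41 at osteogenic day 7 and 8.33 ± 0.726 in adipogenic cells. Of the 12 tested among 15 other proteoglycan cores, 6 rose and 4 fell to osteogenic day 7 and all 12 fell to adipogenic day 7. Of the 7 tested among 8 other SLRP genes, 1 rose and 4 fell to osteogenic day 7, and 1, Tsku, rose (3.95 ± 0.622 to 6.48 ± 1.25 RPKM) and 4 fell to adipogenic day 7. The medians of these 7 lists ran from -0.63 to 0.88 in the osteogenic day 7 comparison, beside -0.46 over all genes tested, and from -1.57 to -0.64 in the adipogenic one, beside -0.83.

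For the later osteogenic time the counts of 3 of the lists are given, while 17.5% of all genes were called higher and 53.4% lower against day 0. Against day 0, 5 of the 22 chain enzymes were higher and 9 lower (median -0.19), 10 of the 17 collagen genes were higher and 5 lower (median 0.48), and 4 of the 12 other cores were higher and 6 lower (median -0.61), beside a median of -0.55 over all genes. Between the osteogenic times 12 of the 17 collagen genes fell and 1 rose, 9 of the 22 chain enzymes fell, and 6 of the 12 other cores fell and 1 rose. Of all genes, 6.87% were called higher and 6.47% lower there.

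With VD3 at day 0 the lists were mixed, while 3.98% of all genes were called higher and 11.0% lower. Of the 17 collagen genes 4 rose and 5 fell, of the 22 chain enzymes 1 rose and 5 fell, of the 3 keratan sulfate enzymes 0 rose and 1 fell, of the 8 proteases 3 rose and 2 fell, of the 9 ligands and receptors 2 rose and 3 fell, of the 12 other cores 2 rose and 5 fell, and of the 7 other SLRP genes limma called 0, with 2 unadjusted p below 0.05. The medians of these lists ran from -0.56 to 0.14, beside -0.27 over all genes tested. The collagenase gene Mmp13 was 13.7 ± 1.38 RPKM with vehicle and 214 ± 20.1 with VD3 at day 0, a difference of 3.87 ± 0.12 with an adjusted p of 2.03e-15, and 48.0 ± 8.47 and 298 ± 43.7 at osteogenic day 7. In adipogenic cells it went the other way, from 26.1 ± 1.80 to 17.1 ± 1.17 RPKM (-0.59, adjusted p 0.0057). The lysyl oxidase Lox fell from 773 ± 44.4 to 405 ± 13.5 RPKM at day 0 (-0.93, adjusted p 1.43e-06). At osteogenic day 7 the chain enzymes Csgalnact1 and Chsy1 fell from 81.6 ± 2.35 to 48.1 ± 5.80 and from 61.4 ± 1.93 to 37.3 ± 4.196 RPKM, with adjusted p of 1.53e-05 and 2.98e-05. In adipogenic cells the core protein gene Vcan fell from 50.8 ± 7.44 to 24.4 ± 2.70 RPKM (-1.03, adjusted p 1.5e-06). VD3 at osteogenic day 7 had 2.91% of all genes called higher and 2.35% lower, and in adipogenic cells 1.51% and 0.574%. Genes are named here by the size of their change. List counts for VD3 in these states are not given, so the named genes do not describe their lists.

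Cell type markers moved with the states and in part with VD3. The summed level of 7 osteoblast markers was 25.9 to 31.0 RPKM in day 0 vehicle libraries, 537 to 562 at osteogenic day 7 and 665 to 745 at osteogenic day 15, and that of 6 adipocyte markers was 67.3 to 89.0 at day 0 and 27655 to 29854 in adipogenic vehicle libraries. With VD3 the osteoblast sum was 16.1 to 17.6 at day 0, 327 to 369 and 328 to 359 at the osteogenic times and 24.9 to 32.2 in adipogenic cells, against 120 to 142 there with vehicle. Most of this lay in 1 gene, Ibsp (bone sialoprotein), which averaged 104 RPKM with vehicle and 3.23 with VD3 in adipogenic cells. From day 0 to adipogenic vehicle libraries the stromal sum went from 1078 to 1081 down to 70.4 to 88.0. The fibroblast sum went from 749 to 845 down to 109 to 118, and the smooth muscle sum from 747 to 765 down to 93.5 to 100.3. Bgn and Ogn also fell there. At osteogenic day 7 with vehicle, Ogn was lower than at day 0, while the fibroblast sum was 1227 to 1645 and the smooth muscle sum 1052 to 1155. The stromal sum was 506 to 540. At osteogenic day 15 with vehicle these sums were 894 to 927, 678 to 748 and 224 to 234. With VD3 in adipogenic cells the stromal sum was 54.0 to 57.5 and the smooth muscle sum 151 to 157, neither overlapping vehicle. The adipocyte sum was 24779 to 28308 in adipogenic VD3 libraries, which overlaps that with vehicle. The sum of 8 stromal markers was 1078 to 1081 RPKM with vehicle and 540 to 589 with VD3 at day 0, that of 4 smooth muscle markers 747 to 765 and 424 to 465, and that of 4 fibroblast markers 749 to 845 and 760 to 847. Cxcl12 made up most of the stromal sum, at 943 and 477 mean RPKM. Eng and Thy1, which mark mesenchymal stem cells by convention, stayed at or below 1.55 and 1.06 mean RPKM in every group. The rest of the stromal sum lay in Ly6a, Cd44, Nt5e, Pdgfra and Lepr, whose single levels are not given here. The part of these shifts in the differences of Bgn, Omd, Aspn and Ogn was not tested. Chondrocyte markers summed to at most 7.76 RPKM, leukocyte markers to at most 15.9, endothelial markers to at most 14.3 and tendon markers to at most 22.5 in any library.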

How the data were processed

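RNA was depleted of ribosomal RNA and made into directional libraries, per the labels' protocols. The authors deposited 1 table per library with RPKM for each of 30795 transcripts, and reads were aligned with TopHat to mm9, per the submitters' processing notes, while the quantification tool and annotation are not given in the sources used here. Transcripts of a symbol were summed. Symbols that had turned into dates (25, on 40 transcripts) were left out. Depth was estimated from 150 low values per library of 288 receptor genes, as the depth at which values are whole reads within 0.1 read, and no count test was run, since the steps depend on unknown lengths. limma 3.58.1 in R 4.3.3 (trend and robust empirical Bayes) was fitted on log2(RPKM + 1) over the 8 groups and 24 libraries, for the 21097 genes that reached 1 RPKM in 3 or more libraries, with Benjamini-Hochberg adjustment over all genes tested in each of 13 comparisons, and was tested on simulated data. Fold changes on this scale understate those of low genes. Group values are means ± SD. Python 3.11.15 did the rest.

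Alternatives were a pseudocount of 0.1, no filter or one at 5 RPKM, median-ratio and quantile scaling, a replicate block, plain empirical Bayes, a fit of the compared groups only, the largest transcript, VD3-treated libraries in place of vehicle, leaving out each library, and background subtraction. The last set values below the background of their library to 0. The 9 members and all gene lists were chosen with earlier results of these data known. Named are all members, up to 3 called genes a list and comparison by size of change with at least 5 mean RPKM in the higher group, of which the text gives some, and the 3 genes most like each member, some of which are not reported here. Protein sequences were not used here.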

Additional observations from a re-analysis of the deposited data

Results flagged for a closer look

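Taken over all interaction comparisons together, limma called a difference in the VD3 effect between cell states for 3 of the 7 tested genes. The share of all genes called in any of these comparisons was not computed. Singly, 2.55% of all genes were called for osteogenic day 7 minus day 0 and 1.82% for adipogenic minus osteogenic day 7. For osteogenic day 15 minus day 7 it was 0.185%, with 0 members called. For Omd the effect at osteogenic day 7 minus that at day 0 was 2.28 ± 0.21 (SE) on the log2 scale, adjusted p 1.62e-06, and that in adipogenic minus osteogenic day 7 cells was -2.41 ± 0.21, adjusted p 4.2e-07. The mean with VD3 was 33.4 RPKM against 50.3 with vehicle at osteogenic day 7, 8.12 against 64.3 at day 0 and 9.88 against 83.1 in adipogenic cells.

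For Aspn the same differences were 1.38 ± 0.23, adjusted p 0.00169, and -1.03 ± 0.23, adjusted p 0.0197. The former call was lost in 1 of 22 alternatives and the latter in 8 of 22. For Dcn the effect in adipogenic minus day 0 cells was 1.02 ± 0.25, adjusted p 0.024, while 3.47% of all genes were called in that comparison. This call was lost in 9 of 22 alternatives. Dcn was below 7.1 RPKM in all 12 of these libraries, and the difference was -0.16 (adjusted p 0.732) with the larger transcript row alone and 0.73 (adjusted p 0.0515) without day 0 VD3 replicate 2, the library with low background.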

How the results depend on the processing

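Counts of called members moved by over 1.5 times in these cases. From day 0 to adipogenic cells 3 were called with quantile scaling, and between the osteogenic times 3 with a pseudocount of 0.1. For VD3 at osteogenic day 7, 1 was called with quantile scaling or plain empirical Bayes and 0 with the fit of the compared groups only or background subtracted. For the difference in VD3 effect, 1 was called with median-ratio scaling for osteogenic day 7 against day 0. For adipogenic cells against day 0, 0 were called with median-ratio or quantile scaling, the fit of the compared groups only, the largest transcript or background subtracted, and for adipogenic against osteogenic day 7 cells, 1 was called under these settings other than the largest transcript. Leaving out 1 library gave 0 to 3 called members for VD3 at osteogenic day 7, 0 to 1 and 1 to 2 for the last 2 differences, 2 to 3 for the difference of osteogenic day 7 and day 0, 4 for the osteogenic times and 3 to 6 for VD3 at day 0.

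Directions turned as follows, and the cause was not tested. With median-ratio scaling Bgn and Omd at osteogenic day 7 against day 0 were 0.17 and 0.054, Prelp in adipogenic cells against day 0 was 0.22, Dcn with VD3 at osteogenic day 7 was -0.076, and the adipogenic minus day 0 effect was -0.014 for Aspn and -0.10 for Ogn. With quantile scaling Prelp was 0.047 at osteogenic day 7 against day 0, 0.96 in adipogenic cells against day 0 and -0.023 with VD3 at osteogenic day 7, Dcn was 0.20 in adipogenic cells against day 0, and the adipogenic minus day 0 effect on Omd was 0.18. With background subtracted Prelp was 0.23, 0.0067 and 1.15 against day 0 at osteogenic day 7, osteogenic day 15 and adipogenic day 7 and -0.023 with VD3 at osteogenic day 7, Dcn was 0.64 in adipogenic cells, and the effect on Omd was 0.22. All Prelp values of day 0 are set to 0 by this subtraction, so its differences from day 0 could not be negative.

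With the largest transcript Dcn was 0.27 in adipogenic cells against day 0, 0.11 and -0.048 with VD3 at day 0 and in adipogenic cells, and -0.16 for their difference. In VD3-treated libraries, with all 3 day 0 libraries and then with replicate 2 alone, Bgn at osteogenic day 7 was 0.44 and 0.46, Omd 1.92 and 1.98, Omd at osteogenic day 15 0.49 and 0.56, and in adipogenic cells Dcn 0.40 and 0.97 and Prelp 0.69 and 1.39. With replicate 2 alone Prelp was 0.36 and 0.35 at the osteogenic times and Lum 0.41 in adipogenic cells. Between VD3-treated states Aspn was 0.14 from osteogenic day 7 to 15, and Omd was -1.67 from osteogenic day 7 to adipogenic cells. Without 1 library, VD3 at osteogenic day 7 gave -0.046 to 0.097 for Dcn, -0.24 to 0.11 for Lum and -0.14 to 0.22 for Prelp, and VD3 in adipogenic cells -0.24 to 0.011 for Lum.

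The replicate block ended 1 call, the rise of Dcn between the osteogenic times (adjusted p 0.0614), and no other among the members. Correlations of same-numbered libraries were -0.0945 to 0.166 over 27 pairs, the best for their number in 7. The highest was between vehicle and VD3 at day 0. With 3 libraries a group, such correlations cannot exclude a pairing by replicate number. Depth and background of day 0 limit what can be said there of Dcn, Lum, Prelp, Fmod and Podn and, with VD3, of Aspn.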
